A study of Zea mays with 14 samples.

Results

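Which messenger RNAs of insulin-treated maize embryonic axes were found in polysomes in a different proportion from that in the whole RNA pool was examined with 4 of the 11 biological samples of the series, on 5 of its 14 Affymetrix maize arrays. The samples were chosen by their labels. The polysomal group with insulin held 3 biological replicates on 1 array each. The total RNA group with insulin held 1 biological replicate on 2 technical arrays, whose values were averaged and counted as 1 sample. Axes of both groups were cut from seeds of Zea mays imbibed for 22 h in the dark and spent 2 h more in Murashige and Skoog medium with bovine insulin at 200 µU/mL, so both groups had the same treatment and differ in the RNA fraction. Polysomal RNA was recovered from 2 g of axes after polysomes were concentrated over a sucrose cushion, and total RNA was taken from 1 g with TRIzol. From each RNA, 4 µg was labelled. Polysomal RNA of axes kept in the same medium without insulin (3 samples) and total RNA of axes excised after 24 h of germination (2 samples, named M4 and RB, with 2 arrays of M4) are used only to ask whether a difference is also seen without insulin. The labels do not say whether the M4 and RB axes went through the 2 h in medium, nor whether the replicates came from separate seed lots, so the p-values describe the scatter among these samples, which may be technical.

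The embryonic axis is the part of the embryo that becomes root and shoot. An mRNA that is being translated carries several ribosomes and sediments with them, while stored or repressed mRNA stays in lighter particles, so the polysomal share of an mRNA is commonly read as a measure of its translation. In the dry seed, mRNAs made during maturation, for example those of late embryogenesis abundant (LEA) proteins, are stored, and during imbibition they give way to mRNAs for growth. In plants, as in animals, the TOR kinase favours translation of certain mRNAs, among them those of ribosomal proteins, and the SnRK1 kinase acts in low-energy states. A sucrose cushion recovers any particle dense enough to pass it, so a polysomal value here is a share of the pelleted RNA. Each array received the same mass of RNA, which makes its values relative, so a rise or fall common to most mRNAs would not be seen. Axes are a mixture of cell types, and less RNA per cell cannot be told apart from fewer cells of a type.

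The medians of the deposited log2 values were 7.53 to 7.61 in the polysomal samples, against 7.66 and 7.60 on the total RNA arrays. Polysomal sample 2 stood apart in its hybridisation controls, whose median of 3.96 lay under that array's highest negative control (4.91), against 9.62 and 8.90 in polysomal samples 1 and 3 and 10.28 and 9.05 on the total RNA arrays. The log2 ratio of the 3′ to the 5′ probe sets of the elongation factor 1α control, which is larger in RNA or cRNA that has lost its 5′ end, was 2.25, 1.45 and 0.99 in polysomal samples 1, 2 and 3, against 0.46 and 0.30 on the total RNA arrays. The same ratio for actin was 2.47, 2.09 and 1.38 in polysomal RNA, against 0.73 and 2.02 in total RNA. For cyclophilin it was 0.22, -0.15 and -0.22 in polysomal RNA, against -0.36 and -0.35 in total RNA. For ubiquitin it was 1.37, 0.61 and 0.60, against -0.09 and 0.62. The ratio therefore differed with the RNA fraction, without overlap, for elongation factor 1α and cyclophilin, and overlapped for actin and ubiquitin. Of 17555 probe sets tested, 13518 were above background on all 5 arrays, where an array's background is the 95th percentile of its negative controls, of which there are 23.

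One probe set passed the test. ZmAffx.1488.1.S1_at, to which no table used here gives a gene, read 6.56, 6.30 and 5.94 in the polysomal samples, against 9.71 and 10.39 on the total RNA arrays. All polysomal values lay more than 3 log2 units under the lower total RNA array. It fell by 3.79 on the log2 scale (SE 0.30), or 13.8-fold, with an adjusted p of 0.00802 in limma over all probe sets. Fitted with only the groups compared, or with germinated groups only, the difference was again -3.79 but no longer passed the test. Without polysomal sample 2 the difference was -3.80, which is no longer a call. The fit thus called 1 of 17555 probe sets (0.00570%), 0 of them higher (0.00%), while 1682 reached an unadjusted p under 0.05 (9.58%), 652 with higher values (3.71%) and 1030 with lower ones (5.87%). With 1 total RNA sample the median 95% interval of a difference reached 0.60 log2 units to either side, and for 7440 of the 13518 probe sets above background (55.0%) the interval lay within a 2-fold change either way.

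Counted by sample, every polysomal value lay above both total RNA arrays for 3025 probe sets (17.2%) and below both for 4200 (23.9%). The separation was at least 2-fold for 50 probe sets above (0.285%) and 86 below (0.490%), and at least 4-fold for 7 (0.0399%) and 6 (0.0342%). Against the first total RNA array alone, a 2-fold separation was found for 131 above and 199 below, and against the second alone for 76 and 127. The median difference over all probe sets was -0.07 log2 units. Gene names were available for 1452 probe sets, which stand for 1108 genes, and their median difference was also -0.07.

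**Figure D1:**
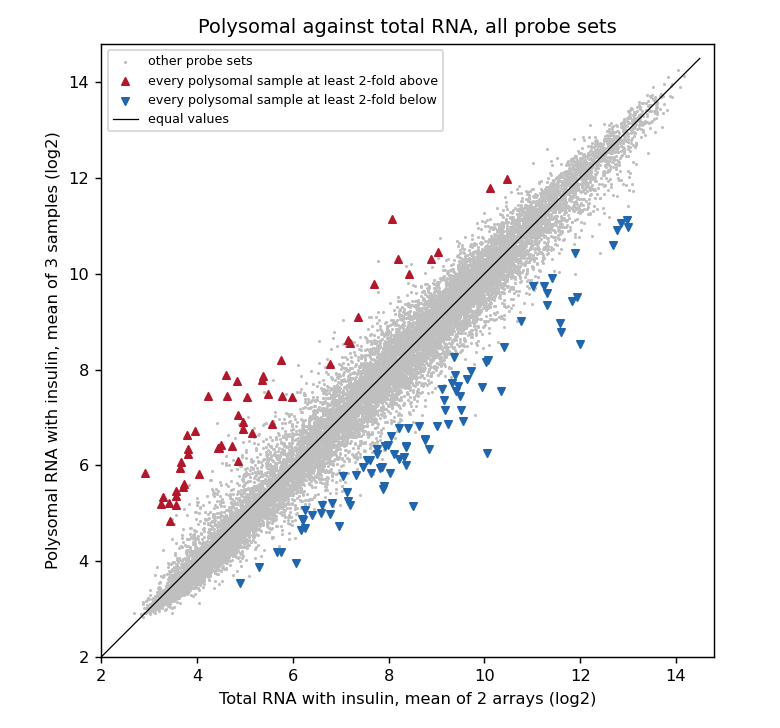
Mean log2 value of the 3 polysomal samples (y axis) against the mean of the 2 total RNA arrays (x axis), both with insulin, for 17555 probe sets. Triangles mark the 50 probe sets with every polysomal sample at least 2-fold above both total RNA arrays and the 86 with every polysomal sample at least 2-fold below. The probe set with the lowest p, ZmAffx.1488.1.S1_at, lies at 6.27 in polysomal RNA and 10.05 in total RNA.

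The named genes with the widest separation above total RNA included xet1, gst13, gst9, gst32, gst31, gst8, akin1 and Snf-4 like. The 15 probe sets stand for 14 genes and were picked by this separation, so that their order and size are a description. None passed the test after adjustment, with adjusted p of 0.34 to 0.59. An unadjusted p under 0.05 was reached by 11 of them, a count also shaped by the choice, against 9.58% of all probe sets. The gene xet1, for a xyloglucan endotransglycosylase that cuts and rejoins wall polymers, came first with 11.12, 9.52 and 10.27 in the polysomal samples, against 8.19 and 8.19 on the total RNA arrays. Its lowest polysomal value was 1.33 log2 units over total RNA, and the mean difference was 2.12 (SE 0.66, adjusted p 0.43), a 4.33-fold higher level. With the elongation factor 1α ratio of each sample as a covariate, the difference of xet1 was 1.40. The polysomal samples differed among themselves by 1.60 log2 units, sample 1 being highest.

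LOC541622 read 9.23, 7.09 and 8.29 in the polysomal samples, against 5.80 and 5.68 on the total RNA arrays, a difference of 2.46 (SE 1.04, adjusted p 0.50). LOC542000 read 7.94, 7.34 and 7.33 in polysomal RNA, against 6.39 and 6.40 in total RNA, a difference of 1.14 (SE 0.55, adjusted p 0.55). With the elongation factor 1α covariate these differences were 1.15 for LOC541622 and 0.50 for LOC542000. In both genes, as in xet1, polysomal sample 1 was the highest and no sample overlapped. RCP2, named for a root cap protein, had 10.58, 10.49 and 10.74 in the polysomal samples, against 9.73 and 9.32 on the total RNA arrays, and piip1, named for induction by physical impedance of the root, had 12.84, 11.76 and 12.36, against 10.90 and 11.12. Neither overlapped total RNA, and the polysomal samples of RCP2 lay within 0.25 log2 units of each other, and those of piip1 spread over 1.08. The next named probe set by this rule, just outside the 15, was for crr1, a cytokinin response regulator, with 6.77 and 6.54 as its lower polysomal values, against 4.99 and 5.90 in total RNA.

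**Figure D2:**
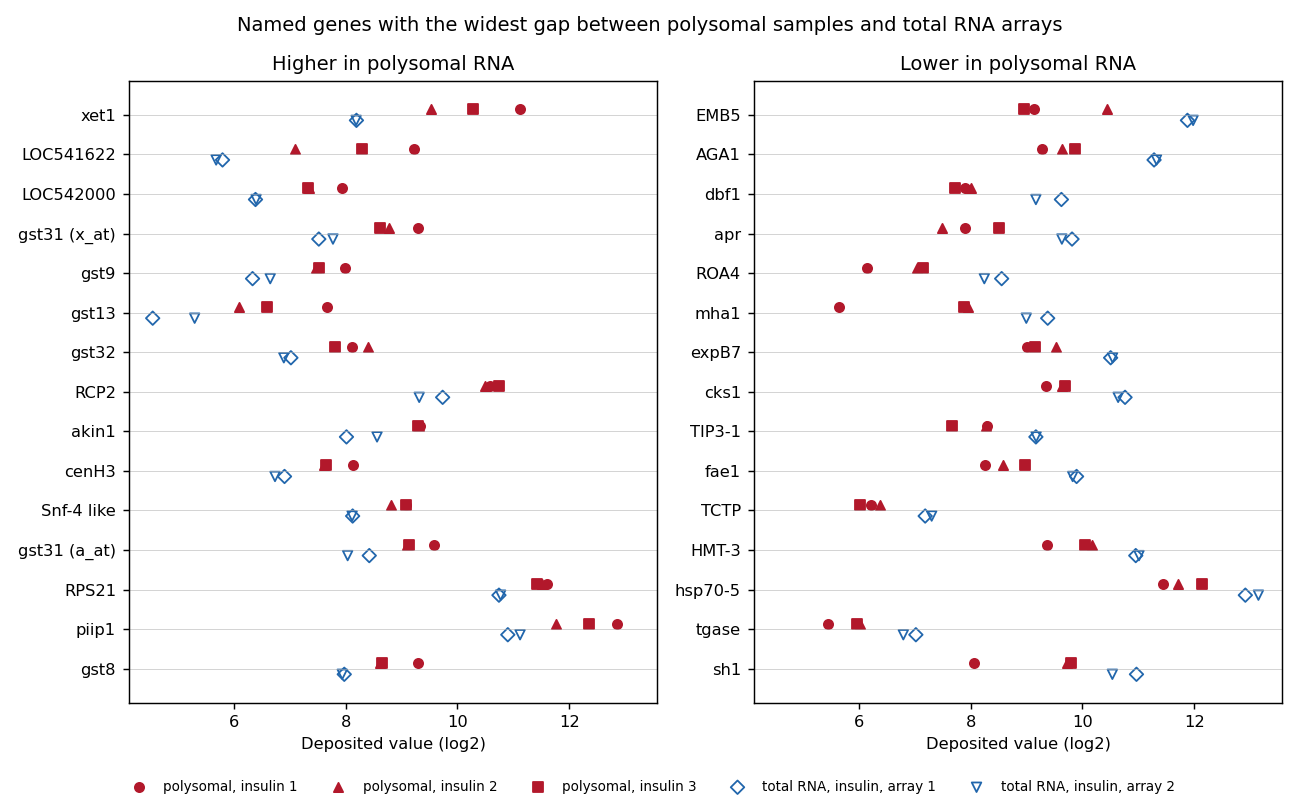
Deposited log2 values of the 30 named probe sets with the widest gap between the 3 polysomal samples (filled red) and the 2 total RNA arrays (open blue), higher ones on the left and lower ones on the right, ordered by the gap. No sample overlaps in any row by the way rows were chosen; polysomal sample 1 stands apart from the other polysomal samples for mha1 and sh1.

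Glutathione S-transferases conjugate glutathione to toxic or reactive compounds and form a large family in maize. Of 35 probe sets for 31 genes, 13 had every polysomal sample above both total RNA arrays (37.1%, against 17.2% of all probe sets) and 1 had every polysomal sample below (gst24, against 23.9% of all). The list was not planned beforehand. The genes gst31, gst9, gst13, gst32 and gst8 were already among those picked by this gap, so these shares are a description. The list's median difference was 0.11, against -0.07 for all probe sets. Of its members 4 had an unadjusted p under 0.05, all higher, against 9.58% of all probe sets, 3.71% with higher values. After adjustment 0 passed the test. One probe set for gst13 read 7.66, 6.10 and 6.59 in polysomal RNA, against 4.55 and 5.30 in total RNA (difference 1.86, SE 0.68, adjusted p 0.48). The first of these total RNA values lay under the background of its array (4.70), so only the second total RNA array measured this probe set above background. A second probe set for gst13 read 9.65, 8.48 and 9.12 in polysomal RNA, against 8.79 and 8.52 in total RNA, and there the groups overlapped.

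The other transferases with wide gaps were gst9, gst32, gst31 and gst8. In gst9 the values were 7.99, 7.47 and 7.53 in polysomal RNA, against 6.34 and 6.65 in total RNA (difference 1.17, SE 0.31, adjusted p 0.36). In gst32 they were 8.11, 8.41 and 7.80, against 7.02 and 6.89 (difference 1.15, SE 0.33, adjusted p 0.40). No sample overlapped, and the gap between groups was 0.82 log2 units for gst9 and 0.78 for gst32. All 4 probe sets of gst31, which share 1 sequence cluster and may read the same transcripts, lay above total RNA with differences of 0.95 to 1.25, the widest having 9.30, 8.78 and 8.62 in polysomal RNA, against 7.52 and 7.77 in total RNA. The abundant members gst1 and gst5 were nearly level, at differences of -0.08 and 0.11. At the other end gst35 read 6.79, 8.26 and 6.84 in polysomal RNA, against 8.47 and 8.17 in total RNA, with overlap through polysomal sample 2. Without that sample 17 transferase probe sets lay above both total RNA arrays, against 23.4% of all probe sets, and 6 below, against 32.9% of all.

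The SnRK1 complex is a kinase with regulatory subunits related to yeast Snf4. All 4 probe sets on the array for 3 of its genes had every polysomal sample above both total RNA arrays. That arrangement was found in 17.2% of all probe sets. The list was not planned beforehand. Its genes akin1 and Snf-4 like were already among those picked by this gap, so the count is a description. The median difference of the 4 probe sets was 0.81 with insulin and 0.52 without it. The regulatory gene akin1 read 9.33, 9.31 and 9.30 in the polysomal samples, against 8.01 and 8.56 on the total RNA arrays, a difference of 1.02 (SE 0.22, adjusted p 0.34). The gene listed as Snf-4 like read 9.08, 8.80 and 9.08 in polysomal RNA, against 8.12 and 8.12 in total RNA by one probe set, and 8.83, 8.71 and 8.79, against 8.13 and 7.93, by the other. The kinase gene SnrK1 read 9.26, 9.05 and 9.02, against 8.63 and 8.59, with a difference of 0.50. The polysomal values spread by 0.03 (akin1) to 0.28 log2 units (Snf-4 like), less than the gap to total RNA in each gene. For the TOR kinase, whose pathway acts opposite to SnRK1, the values were 7.75, 7.65 and 8.03 in polysomal RNA, against 7.57 and 7.48 in total RNA, and for the S6 kinase 6.66, 6.65 and 6.70, against 7.09 and 6.75. The differences were 0.28 and -0.25, and neither gene's groups overlapped.

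Ribosomal protein genes are named in the series title. Of 28 probe sets for 19 genes, 9 had every polysomal sample above both total RNA arrays (32.1%, against 17.2% of all probe sets) and 4 below (14.3%, against 23.9% of all). The median difference was 0.13, against -0.07 for all probe sets. By total RNA array the list's median was 0.09 against the first and -0.003 against the second. RPS21, for a small subunit protein, had the widest gap, with 11.60, 11.52 and 11.43 in polysomal RNA, against 10.74 and 10.77 in total RNA (difference 0.76, SE 0.29, adjusted p 0.49). RPL19, for a large subunit protein, was at the other end, with 10.95, 11.44 and 11.67, against 11.90 and 12.25 (difference -0.72, SE 0.30, adjusted p 0.50). The 4 probe sets of rps6, whose protein is the substrate of S6 kinase, ranged from -0.03 to 0.44, and rps6-2 was at -0.20.

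Among 12 probe sets for initiation factors, 1 lay above (8.33%) and 4 below both total RNA arrays (33.3%), against 17.2% and 23.9% of all probe sets, and the median was -0.08. The lowest was tif1, also called GOS2 and related to the initiation factor eIF1, with 12.91, 13.24 and 13.05 in polysomal RNA, against 13.75 and 13.66 in total RNA (difference -0.64, SE 0.21, adjusted p 0.45). For the cap-binding factor eIF4E1 the samples overlapped, with 11.20, 11.72 and 11.53 in polysomal RNA, against 11.77 and 11.62 in total RNA. Of 14 probe sets for elongation factor 1α, 1 lay above and 1 below (7.14% each), with a median of 0.05. Without polysomal sample 2, 3 of the 14 lay above, against 23.4% of all probe sets.

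The named genes with the widest separation below total RNA included EMB5, AGA1, dbf1, apr and hsp70-5. The 15 probe sets were again picked by this separation, so that their order, size and p are a description. Their adjusted p was 0.31 to 0.65. An unadjusted p under 0.05 was reached by 13 of them, against 9.58% of all probe sets. EMB5, an LEA protein of the Em class made late in seed maturation, had the widest gap, with 9.13, 10.43 and 8.96 in the polysomal samples, against 11.88 and 11.98 on the total RNA arrays. The highest polysomal value, in sample 2, was 1.44 log2 units under total RNA, and the mean difference was -2.42 (SE 0.62, adjusted p 0.35), a 5.35-fold lower level. Of the 8 probe sets of the LEA and dehydrin list 3 lay below (37.5%, against 23.9% of all probe sets) and 1 above (12.5%, against 17.2%), with a median of -0.31. The gene rab17, a dehydrin induced by abscisic acid, read 9.23, 11.04 and 9.36 in polysomal RNA, against 10.78 and 11.03 in total RNA, with overlap in sample 2. Without sample 2, 6 of the 8 lay below, against 32.9% of all probe sets.

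In the storage protein and oil body list, the globulin gene glb1 read 5.77, 9.09 and 6.28 in polysomal RNA, against 9.92 and 9.68 in total RNA (difference -2.76, SE 1.28, adjusted p 0.54), and the oleosin gene ole1 read 10.66, 12.17 and 10.89, against 12.23 and 12.17. In both, polysomal sample 2 was nearest to total RNA and samples 1 and 3 were more than 1 log2 unit under it. The median over the 4 probe sets was -0.82, and 1 of them had every polysomal sample below both arrays (25.0%, against 23.9% of all probe sets). Without sample 2 that number was 3, against 32.9% of all. TIP3-1, an aquaporin of the protein storage vacuole in seeds, read 8.29, 8.27 and 7.66, against 9.17 and 9.17, with a difference of -1.09 (SE 0.48, adjusted p 0.51).

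Among the 15 were AGA1 and sh1, of sugar metabolism, and apr and HMT-3, of sulphur metabolism. AGA1, an alkaline α-galactosidase that acts on raffinose sugars, read 9.28, 9.63 and 9.87 in polysomal RNA, against 11.28 and 11.32 in total RNA (difference -1.71, SE 0.30, adjusted p 0.34). The sucrose synthase gene sh1 read 8.07, 9.72 and 9.79, against 10.97 and 10.53 (difference -1.56, SE 1.06, adjusted p 0.65), polysomal sample 1 being far lower than the others. With the elongation factor 1α ratio of each sample as a covariate the difference of sh1 was 0.39. That covariate moved 9 of the 30 named differences by over 1.5 times, 4 of the higher and 5 of the lower ones, and the part of this ratio in them was not tested. The other sucrose synthase gene, sus1, read 13.40, 13.41 and 13.41, against 13.30 and 13.28. For apr, for an enzyme of sulphate reduction, the values were 7.90, 7.48 and 8.50, against 9.81 and 9.63, and for HMT-3, a homocysteine S-methyltransferase that makes methionine, they were 9.37, 10.17 and 10.05, against 10.95 and 11.01. Neither overlapped. The difference of HMT-3 was -1.12, and -0.71 with the covariate.

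The remaining low genes have separate roles. The transcription factor gene dbf1, whose protein binds drought-responsive promoter elements, had 7.90, 8.01 and 7.72 in polysomal RNA, against 9.62 and 9.17 in total RNA (difference -1.52, SE 0.24, adjusted p 0.31). The gene cks1, for an enzyme that activates the wall sugar KDO, had 9.35, 9.63 and 9.69, against 10.76 and 10.64 (difference -1.14, SE 0.22, adjusted p 0.34). The polysomal samples spread by 0.28 and 0.34 log2 units and lay under both total RNA arrays. TCTP, the translationally controlled tumour protein, read 6.22, 6.39 and 6.03, against 7.19 and 7.30, and mha1, a plasma membrane proton pump, read 5.654, 7.955 and 7.880, against 9.378 and 8.995. Polysomal sample 1 of mha1 lay more than 2 log2 units under the other polysomal samples, and the difference of mha1 was -2.02, or -0.30 with the elongation factor 1α covariate. Among the rest were fae1, a fatty acid elongase, with a difference of -1.26, tgase, a transglutaminase, with -1.09, and ROA4, with -1.62. With the covariate tgase was at -0.44 and ROA4 at -0.65.

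Expansins, which loosen the wall during cell growth, were the list with the largest share under total RNA among those of 10 or more probe sets. Of 17 probe sets for 12 genes, 10 had every polysomal sample below both total RNA arrays (58.8%, against 23.9% of all probe sets) and 0 above. The median difference was -0.56, at -0.64 against the first total RNA array and -0.26 against the second. Of the 17, 6 had an unadjusted p under 0.05, all lower, against 9.58% of all probe sets, 5.87% with lower values. After adjustment 0 passed the test. In expB7 the values were 9.02, 9.53 and 9.15 in polysomal RNA, against 10.50 and 10.54 in total RNA (difference -1.29, SE 0.32, adjusted p 0.34). In expa2 they were 8.04, 10.02 and 8.96, against 10.75 and 10.63 (difference -1.68, SE 0.72, adjusted p 0.51), and in expa1 9.46, 10.26 and 9.80, against 11.12 and 10.66 (difference -1.05, SE 0.57, adjusted p 0.58). Polysomal sample 1 was lowest in both α-expansins. The gene expA3, at a lower level, read 6.85, 5.33 and 5.94 in polysomal RNA, against 5.52 and 5.37 in total RNA, with overlap. Without polysomal sample 2, 10 members lay below, against 32.9% of all probe sets, and 2 above, against 23.4%. For expA4 the total RNA arrays themselves differed by 1.24 log2 units in one probe set, at 12.02 and 10.78, against 10.50, 10.97 and 10.91 in polysomal RNA. The median of the list without insulin was 0.05, with -1.47 for expa2, -1.24 for expa1 and -0.77 for expB7, and the difference between the comparisons was called for no expansin.

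Cellulose synthases make the wall's microfibrils, and tubulins form the microtubules that guide them. Of 13 cellulose synthase probe sets 3 lay above (23.1%) and 1 below (7.69%), with a median of 0.19. Of 21 tubulin probe sets 2 lay above (9.52%) and 9 below (42.9%), against 17.2% and 23.9% of all probe sets, with a median of -0.13. All 4 probe sets for tub6, a β-tubulin gene, were below with differences of -0.56 to -0.87. The lowest of them had 10.05, 9.98 and 10.38 in polysomal RNA, against 11.17 and 10.84 in total RNA. The abundant tua4, an α-tubulin gene, had differences of -0.24 and 0.08. Without polysomal sample 2 the numbers above were 6 for cellulose synthases and 5 for tubulins, against 23.4% of all probe sets.

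Heat shock proteins, the chaperones made under stress and during seed maturation, differed in their spread. The cognate-type genes hsp70-5 and hsp70-4 were below total RNA in every sample, and hsp70-5 read 11.44, 11.70 and 12.14 in polysomal RNA, against 12.91 and 13.15 in total RNA (difference -1.27, SE 0.25, adjusted p 0.34). Its 3 probe sets, of 1 cluster, had differences of -1.10 to -1.27. The small heat shock genes and hsp101, by contrast, varied most between the polysomal samples. For hsp26 the values were 10.69, 12.09 and 8.80 in polysomal RNA, against 11.31 and 11.17 in total RNA, and for hsp101 they were 11.03, 12.01 and 9.89, against 11.89 and 11.44. Polysomal sample 2 was above total RNA and sample 3 under it in both, so that the groups overlapped. The SE, which comes from the spread within all 5 groups of the fit, was 1.29 and 1.19. Of 13 probe sets in the list 4 lay below (30.8%, against 23.9% of all probe sets) and 0 above (against 17.2%), and 8 lay below without sample 2, against 32.9% of all. The list's median difference was -0.55 with insulin and 0.89 without it. Total RNA without insulin was as uneven, hsp26 reading 11.20 and 11.21 on the arrays of M4 and 9.04 in RB.

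**Figure D3:**
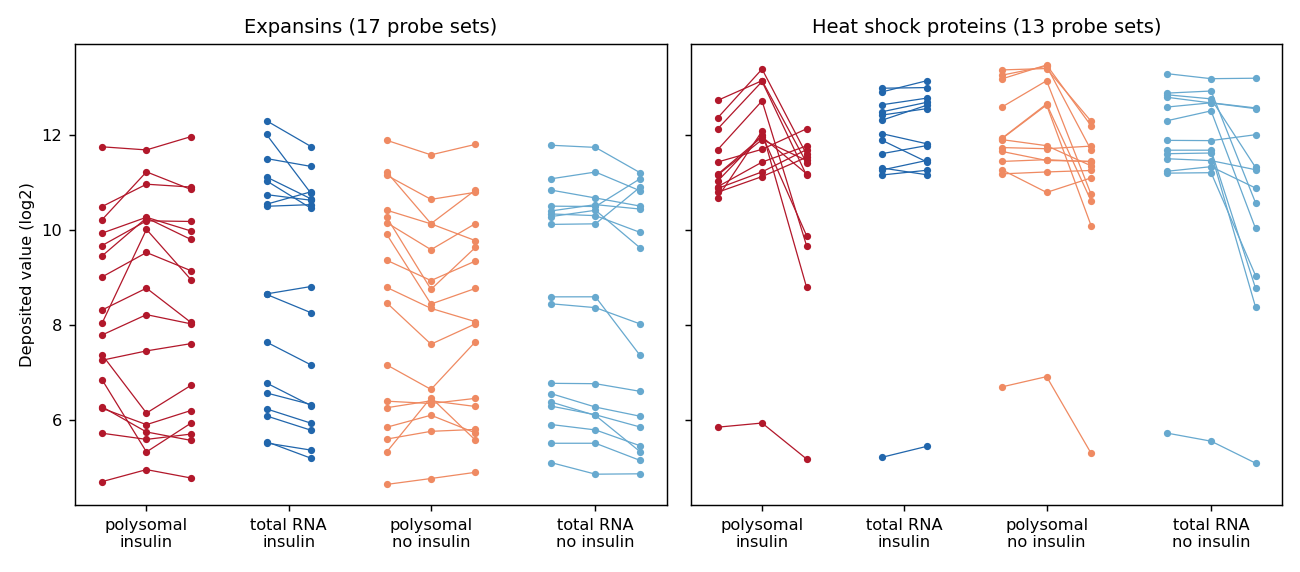
Deposited log2 values of 17 expansin and 13 heat shock protein probe sets on each array, with lines joining the same probe set within a group; groups are polysomal and total RNA with insulin, then polysomal and total RNA without insulin (samples 1, 2 and 3 of each polysomal group, the 2 total RNA arrays with insulin, then both arrays of M4 and RB). Several heat shock genes spread over more than 2 log2 units between polysomal samples and between M4 and RB, as for hsp26 (8.80 to 12.09 in polysomal RNA with insulin).

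Among genes of the cell cycle, cycD2, a D-type cyclin, had every polysomal sample below, with 8.72, 9.52 and 9.83, against 10.76 and 10.46 in total RNA (difference -1.25, SE 0.42, adjusted p 0.45). The cyclin-dependent kinase gene cdc2 was below by both probe sets, at -0.51 and -0.30, and of the 9 probe sets of that list 0 lay above and 3 below (33.3%), against 17.2% and 23.9% of all probe sets. Without polysomal sample 2, 4 of them lay above, against 23.4% of all. For DNA replication 1 of 10 lay above (pcna1, 0.37) and 4 below, among them orc3 at -0.63. Of 11 histone probe sets 3 lay above (27.3%) and 0 below. The gene cenH3, the histone H3 of centromeres, read 8.13, 7.62 and 7.65 in polysomal RNA, against 6.91 and 6.74 in total RNA (difference 0.98, SE 0.30, adjusted p 0.43), and its difference was 0.64 with the elongation factor 1α covariate. A second probe set for cenH3, near background, read 5.27, 4.90 and 4.77, against 5.07 and 4.87, and did not separate the groups. The cytokinin regulator crr1 had 7.36, 6.77 and 6.54, against 4.99 and 5.90 (difference 1.44, SE 0.40, adjusted p 0.38), while the median of the 11 response regulator probe sets was -0.11.

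For the next lists the shares over all probe sets are again 17.2% above and 23.9% below, and without polysomal sample 2 they are 23.4% and 32.9%. Aquaporins, the water channels of membranes, had 1 of 36 above (2.78%) and 7 below (19.4%), with a median of -0.01, and 15 above and 8 below without polysomal sample 2. TIP2-2 was an aquaporin with wide spread, at 9.48, 5.99 and 8.13 in polysomal RNA, against 6.21 and 6.12 in total RNA. Folding proteins of the endoplasmic reticulum had 3 of 29 above (10.3%) and 7 below (24.1%), with a median of -0.13, and all 4 probe sets for calnexin (CNX), of 1 cluster, were below with differences of -0.48 to -0.77. Glycolysis and fermentation had 5 of 23 above (21.7%) and 1 below (4.35%), with a median of 0.11, the one below being pfk1, a phosphofructokinase, at -0.79. Starch and sucrose enzymes had 2 of 17 above (11.8%) and 4 below (23.5%), with a median of -0.11. Without polysomal sample 2 the numbers below were 12 for the folding proteins, 2 for glycolysis and 6 for starch and sucrose enzymes.

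Markers of other kernel tissues were looked at because dissected axes could carry them. Of 14 probe sets for zeins, the storage proteins of the endosperm, 11 were at background on all 5 arrays, the median difference was -0.12, and the γ-zein gene gz27 read 7.65, 8.19 and 8.12 in polysomal RNA, against 8.55 and 8.22 in total RNA. The sucrose synthase gene sh1, given above with sugar metabolism, was also planned as an endosperm marker. Its difference was -1.56, or 0.39 with the elongation factor 1α covariate. The globulins and oleosin, which the embryo makes, scutellum included, are given above. The part of kernel tissue carried over in any of these differences was not tested.

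**Figure D4:**
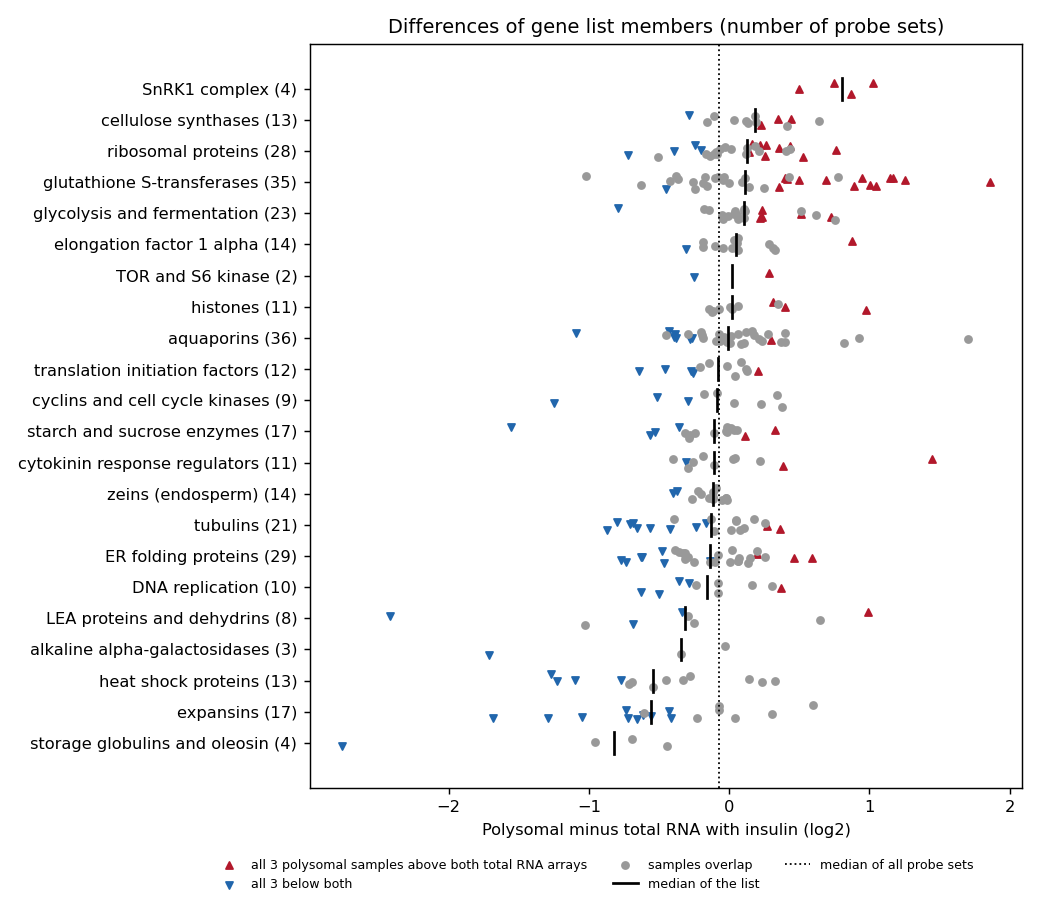
Polysomal minus total RNA difference with insulin (log2, x axis) for each probe set of 22 gene lists, with the number of probe sets in brackets and lists ordered by median (bar). Red and blue triangles are probe sets with all 3 polysomal samples above or below both total RNA arrays, grey points overlap, and the dotted line is the median of all probe sets (-0.07); the SnRK1 list has a median of 0.81 and the expansins -0.56.

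By identifier, without regard to names, the widest gaps lay outside the named genes. ZmAffx.1468.1.S1_at read 7.75, 7.34 and 7.24 in the polysomal samples, against 3.93 and 4.51 on the total RNA arrays, which was at background there, so that its level was at least 6.74-fold higher (fitted difference 3.22, SE 1.29, adjusted p 0.50). ZmAffx.1339.1.S1_at read 5.45, 6.03 and 6.06, against 3.00 and 2.83, also at background in total RNA, and was at least 2.22-fold higher. Bounds here are set against each array's background level. ZmAffx.1307.1.S1_at read 8.86, 8.95 and 7.77 in polysomal RNA, against 11.82 and 12.15 in total RNA, a difference of -3.46 (SE 0.40, adjusted p 0.0843). Probe sets with ZmAffx identifiers made up 26 of the 50 with a 2-fold gap above (52.0%) and 28 of the 86 below (32.6%), while they are 12.4% of those tested. Of the 50 above, 22 were at background on both total RNA arrays, and of the 86 below, 4 were at background in all polysomal samples.

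The same fractions were compared without insulin, with polysomal RNA of axes in medium alone against M4 and RB. There the fit called 190 probe sets (1.08%), of which 54 were higher (0.308%) and 136 lower (0.775%). The 3′ to 5′ ratio of elongation factor 1α differed between the fractions here too. It was 1.32, 2.55 and 0.88 in polysomal RNA, against 0.76 and 0.50 on the arrays of M4 and 0.62 in RB. The part of this ratio in differences shared by both comparisons was not tested. All 86 probe sets with a 2-fold gap below with insulin had a negative difference without it, against 50.4% of all probe sets. Their median difference was -1.82 with insulin and -1.68 without. In 69 of the 86 every polysomal sample without insulin lay under both M4 and RB, against 17.8% of all probe sets. The called ZmAffx.1488.1.S1_at read 5.97, 6.41 and 5.87 in polysomal RNA without insulin, against 10.13 and 10.42 on the arrays of M4 and 9.77 in RB. All 15 named lower probe sets had a negative difference without insulin, and 4 of them were called there: AGA1, dbf1, cks1 and hsp70-5.

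The 50 probe sets high in polysomes with insulin had a median difference of 1.91 with insulin and 0.17 without, and 30 of the 50 had a positive difference without insulin, against 49.6% of all probe sets. In 40 of the 50 every polysomal sample without insulin lay above M4, against 28.1% of all probe sets, and in 17 above both M4 and RB, against 14.9%. RB itself was at least 2-fold over the insulin-treated total RNA in 34 of the 50, and M4 in 3. The share over all probe sets was not counted for this. The 50 were picked in part for low insulin-treated total RNA, so these numbers are a description. ZmAffx.1468.1.S1_at is an example of a high RB, with 5.11, 8.02 and 5.83 in polysomal RNA without insulin, against 4.12 and 4.75 on the arrays of M4 and 8.02 in RB. Of the named higher probe sets 13 of 15 had a positive difference without insulin, the others being both for gst31, where RB read 9.62 in one, over all polysomal samples of either treatment. Of the 15, gst9 was called without insulin.

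**Figure D5:**
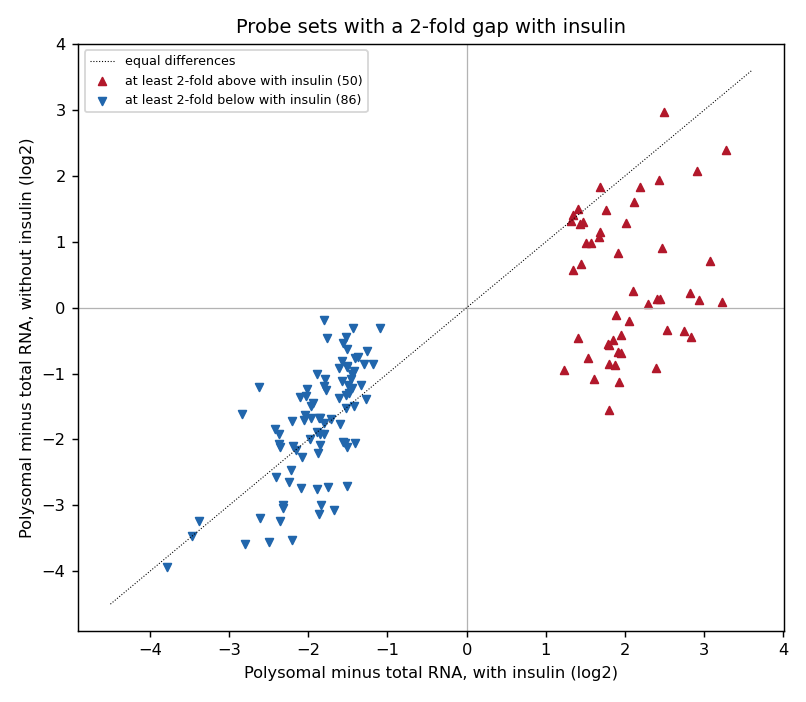
Polysomal minus total RNA difference without insulin (y axis) against that with insulin (x axis), both log2, for the 136 probe sets with a 2-fold gap with insulin. All 86 lower ones (blue) are negative on both axes, while the 50 higher ones (red) spread from positive to negative without insulin, with 30 of 50 above 0; the dotted line marks equal differences.

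The difference between both comparisons was itself tested. With insulin against without, limma called 0 of 17555 probe sets (0.00%), and 303 reached an unadjusted p under 0.05 (1.73%). With 1 insulin-treated total RNA sample, 0 calls do not show that both comparisons are alike. Without M4 in the fit 91 were called, and without RB 0, so this count rests on a single 24 h sample. Those with the smallest p were ZmAffx.715.1.A1_s_at, with a difference of -1.68 with insulin and -3.08 without, and Zm.2199.3.A1_a_at, with 0.22 and -0.62. In the other direction they were Zm.18994.2.A1_a_at and Zm.9555.2.A1_x_at, the second with -0.49 and 0.51. Zm.18994.2.A1_a_at was under background on all arrays of both comparisons except the first insulin-treated total RNA array (4.77, against a background of 4.70), so no difference is read from it. In Zm.2199.3.A1_a_at the total RNA arrays with insulin differed by 0.84 log2 units, at 9.89 and 10.72, against 10.47, 10.45 and 10.66 in polysomal RNA.

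When insulin-treated total RNA was joined with M4 and RB as a single group of 3 total RNA samples of germinated axes, which mixes treatments, polysomal RNA with insulin differed by 287 called probe sets (1.63%), namely 114 with higher (0.649%) and 173 with lower polysomal levels (0.985%). Of these, 23 have a gene name. Of the named probe sets above, 3 higher ones and 7 lower ones were called. The named ones had been picked by gaps in the same polysomal samples and insulin-treated total RNA, so these calls are no separate evidence. Polysomal levels rose for gst9 (1.26, adjusted p 0.0210), gst32 (1.11, adjusted p 0.0440) and cenH3 (0.96, adjusted p 0.0475). They fell for AGA1 (-1.68), dbf1 (-1.47), cks1 (-1.19) and hsp70-5 (-1.40), each with an adjusted p of 0.00839, and for EMB5 (-2.23, adjusted p 0.0346), TCTP (-0.88, adjusted p 0.0474) and HMT-3 (-1.08, adjusted p 0.0474). Among named genes outside the widest gaps, HP3, named for a histidine phosphotransfer protein of cytokinin signalling, rose by 1.17 (adjusted p 0.0190), and tif1 fell by 0.69 (adjusted p 0.0474). In HP3 the values were 7.60, 7.49 and 7.03 in polysomal RNA with insulin, against 6.23 and 6.57 on the insulin-treated total RNA arrays, 6.05 and 5.85 on those of M4 and 6.26 in RB. Of the 334 probe sets in any list 3 were called higher and 7 lower in that fit, against 0.649% and 0.985% of all probe sets. None was an expansin, a ribosomal protein gene or a SnRK1 gene, in lists of 17, 28 and 4 probe sets. In lists of that size, 0 calls cannot be told apart from the 1.63% over all probe sets. Since its total RNA group held both treatments, that fit does not address insulin.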

How the data were processed

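The authors deposited a table of log2 intensities for 17734 probe sets; its scale was read from its range (2.63 to 14.38 in tested probe sets), while the background, normalization and probe summary steps remain not stated in the labels or header. Per the submitters' processing notes the authors used limma, its version not stated. AFFX (113) and RPTR (66) control probe sets were left out. Technical arrays of a sample were averaged, and all 11 biological samples in 5 groups were fitted with limma 3.58.1 in R 4.3.3 (lmFit, eBayes, 6 residual and 3.21 prior degrees of freedom). The lone total RNA sample with insulin is assumed to vary like the other groups. Calls used a Benjamini-Hochberg adjusted p under 0.05 over 17555 probe sets; the number of arrays limits the precision. The script was tested on simulated data.

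Genes come from GEO's platform annotation, an old one, which lists 1 gene for 1452 probe sets, several for 1 and none for 16102; symbols were updated through NCBI gene identifiers in a RefSeq gene table (1377 matched). Named were the called probe set, the 15 widest gaps per direction with a gene and above background in every sample of the higher group, the 2 widest per direction by identifier (ranks 3 to 10 enter only the count of alternatives), and the 2 smallest p of the interaction per direction; others in the text, such as rab17 or crr1, were picked from the lists or beside them after their values were seen. The tables hold no gene descriptions, so the lists were matched by symbol, after values of the leading probe sets had been seen. The comparison and the lists were chosen with earlier results of these data known. The lists of glutathione S-transferases and of the SnRK1 complex were not among those first planned. Alternatives were each total RNA array alone, other sample sets, blocks and priors, quantile normalization, median centring, a filter on dim probe sets, a covariate, and leaving out samples; counts of list members without polysomal sample 2 were added after seeing the data. Figures were drawn with matplotlib 3.10.9.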

Additional observations from a re-analysis of the deposited data

Results flagged for a closer look

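Signals were present in control probe sets outside the comparison, above every negative control of the same array. For the spiked poly-A transcripts the control medians were 9.57, 10.79 and 7.37 in polysomal samples 1, 2 and 3, against 7.11 and 7.19 on the total RNA arrays. The median of the hybridisation controls was 9.62 and 8.90 in polysomal samples 1 and 3, against 10.28 and 9.05 on the total RNA arrays. In polysomal sample 2 it was 3.96, which is not above the negative controls, and the highest reporter probe set there read 6.17, against 13.94 and 13.70 in the other polysomal samples. Of the 66 reporter (RPTR) probe sets, 4 were above every negative control on all 5 arrays.

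In 2 named probe sets the values of all polysomal samples lay on one side of total RNA with insulin and on the opposite side without it. Zm.18994.2.A1_a_at read 3.31, 3.81 and 3.43 in polysomal RNA with insulin, against 4.77 and 4.16 in total RNA with insulin. Without insulin it read 3.82, 3.53 and 3.62 in polysomal RNA, against 3.39 and 3.44 for M4 and 3.44 for RB. The difference between the comparisons was -1.18, but all these values except 4.77 lay under the background of their arrays, so nothing is read from that arrangement. Zm.9555.2.A1_x_at had a difference between the comparisons of -1.003. Neither passed the interaction test after adjustment in limma (adjusted p 1). The same opposite arrangement was found in 113 of 17555 probe sets.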

How the results depend on the processing

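The count of called probe sets, 1 in the chosen fit, was 2 against the first total RNA array alone, 7 with all arrays and the sample as a random block, 0 with only the groups compared (1630 at an unadjusted p under 0.05), 0 with germinated groups only (1614), 287 against all 3 total RNA samples and 2 with a trended robust prior. It was 0 to 2 without 1 sample. The count at an unadjusted p under 0.05 was 3173 against the first array, 3552 against all 3 total RNA samples and 1011 with the elongation factor ratio as a covariate. The 50 with a 2-fold gap above became 131 and 76 against each total RNA array, 3 against all 3 samples, 3025 by non-overlap, 7 at 4-fold, and 73 to 160 without 1 polysomal sample (160 without sample 2). The 86 below became 199 against the first array, 33 against all 3 samples, 4200 and 6 by those rules, and 97 to 187 without 1 polysomal sample (187 without sample 2, 149 without sample 3). The calls of the difference between comparisons numbered 0 to 91 without 1 sample, 91 being without M4. The median difference was -0.12 and -0.016 against each array, -0.05 against all 3 samples, -0.004 after quantile normalization, -0.0185 after median centring and -0.0161 without dim probe sets. For 54 probe sets, those named and those of ranks 3 to 10 by identifier, 17 settings gave 917 values, as the filter on dim probe sets removed Zm.18994.2.A1_a_at. Of these, 885 kept sign and call, 25 gained a call, 3 lost it (ZmAffx.1488.1.S1_at) and 4 reversed: sh1 to 0.39 (covariate), Zm.2199.3.A1_a_at to -0.20 (second array) and -0.27 (all 3 samples), and Zm.9555.2.A1_x_at to 0.047 (all 3 samples). The cause was not tested. With the replicate number as a block, 1 probe set was called and 1145 had an unadjusted p under 0.05. The numbers did not pair the polysomal samples: deviations of same-numbered samples with and without insulin correlated at -0.63, -0.45 and 0.60, and sample 1 with insulin went with sample 2 without (0.70) and sample 2 with sample 1 (0.77), across probe sets, as a hint from the data. With 1 total RNA sample, a 2-fold difference is near the precision of the fit. Of 152 genes with several probe sets above background, 99 had all of them of the same sign.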
